A study of Mus musculus with 4 samples.

Results

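The Ifit gene cluster of the mouse is a run of 6 protein-coding genes on chromosome 19, Ifit2, Ifit3, Ifit1bl1, Ifit3b, Ifit1bl2 and Ifit1, which span chr19:34550694-34650009 (99316 bp) in build mm10. The cluster was examined with 20 kb on each side, an interval of 139316 bp at chr19:34530694-34670009. In this interval the 4 peak lists held 48 peaks, which formed 15 of the 71243 union regions of the series, a union region being a set of peaks that overlap by at least 1 bp. The regions are numbered 1 to 15 in chromosome order. Members were found by name and position, a rule that uses no measured value, though the cluster was picked with earlier results of these data known.

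Ifit genes code for cytoplasmic proteins built of tetratricopeptide repeats, which cells make in response to type I interferon. Ifit1 binds viral RNA whose cap lacks host methylation, and Ifit2 and Ifit3 form complexes with other members of the family. Interferon acts through its receptor and the kinases Jak1 and Tyk2 to switch on genes that carry the interferon-stimulated response element (ISRE). The mouse cluster holds recent duplicates, so that Ifit3 and Ifit3b are near-identical copies, and the role of Ifit1bl1 and Ifit1bl2 is less well known.

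ATAC-seq marks accessible DNA by the insertion of sequencing adapters by the transposase Tn5, and it was carried out on unstimulated bone marrow-derived macrophages (BMDMs), 2 biological replicates each of the WT and H3.3 cKO genotypes. BMDMs are macrophages grown from bone marrow, here in medium with 20% L929 conditioned media. Their culture ran for 6 to 8 days per the labels, and the assay used cells of day 7. WT mice carried the floxed H3.3 genes, H3f3a fl/fl and H3f3b fl/fl, without Cre, and cKO mice carried the same alleles with LysM cre/cre. All were on the C57BL/6 background and 8 to 10 weeks old. The study used male and female mice, and the sex behind each of these libraries was not stated. LysM-Cre is expressed from the Lyz2 locus in myeloid cells, so single cells of a cKO culture may differ in how completely the genes were deleted. The unit below is the percentile of a peak's area, the authors' peak signal, among all peaks of its own list.

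The 4 lists held 51955 to 64939 peaks. In both genotypes replicate 2 had the longer list, and a region usually stood higher in replicate 2: among the 44820 regions called in all 4 libraries, the WT 2 percentile was above that of WT 1 in 90.4% and the cKO 2 percentile above that of cKO 1 in 87.8%. Promoters of 9 of 10 macrophage marker genes were called in all 4 libraries (Spi1 was the exception), and those of none of 4 T cell, 4 fibroblast and 4 epithelial or liver markers were. Of 4 B cell markers, only Ms4a1 had a promoter peak in all 4. A region within H3f3a was called in both WT libraries, at percentiles 5.02 and 19.1, and in neither cKO library, while the promoters of both genes were called in all 4. That of H3f3a stood at 96 and 97.2 in WT, against 93.4 and 94.1 in cKO. The highest H3f3b promoter region stood at 94.2 and 95.5 in WT, against 87 and 81.4 in cKO, so it was lower in cKO but still among the higher peaks. Another region at H3f3b, also classed as promoter, overlapped, at 23.7 and 34.3 in WT, against 28.7 and 42.5 in cKO. The lists do not show how complete the deletion was.

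The sequences at the cluster's regions are shown first, since most of its promoters share an element. The element is the core of the ISRE, searched as GAAANNGAAA on both strands and printed in capitals. All sequences are the RefSeq reference of mm10 (GRCm38.p6), 5′ to 3′ on the strand given with each. The ISRE core occurred in 6 of the 15 regions, and these held 9 of the 27 cores in the interval (33.3%), although regions made up 5.11% of its bases. Within 100 bp of the summit it lay in 5 of 15 regions (33.3%), against 3.9% of all 71243 regions. Among RefSeq promoters, taken as 250 bases before to 50 bases after a start, 6 of the 9 listed for the members held a core, against 3.44% of 32851 promoters. At least 2 cores were present in 0.225% of promoters, and those of Ifit3, Ifit3b, Ifit1 and Ifit1bl2 were among them. The member promoters are not independent counts. Those of Ifit1 and Ifit1bl2 share the same 2 cores, and those of Ifit3 and Ifit3b are near copies, as are those of the 2 Ifit1bl1 starts. The counts by region include the same near copies. Match to a consensus is a description of the letters and not evidence of binding.

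The window around the cores of Ifit3 (region 7, chr19:34583313-34583476, forward strand) and that of Ifit3b (region 11, chr19:34607709-34607872, forward strand) were identical in all 164 bases, with 2 cores whose starts lay 34 bases apart, and so the sequence is given once.
Ifit3 and Ifit3b: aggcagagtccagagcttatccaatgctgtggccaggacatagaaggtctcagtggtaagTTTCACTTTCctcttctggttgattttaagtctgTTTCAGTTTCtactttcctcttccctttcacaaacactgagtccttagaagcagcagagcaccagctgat

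Ifit1 and Ifit1bl2 are transcribed away from each other and are separated by 127 bases (region 14, chr19:34640744-34640870, forward strand). This stretch holds 2 cores with starts 19 bases apart, and both genes share it.
Ifit1 and Ifit1bl2: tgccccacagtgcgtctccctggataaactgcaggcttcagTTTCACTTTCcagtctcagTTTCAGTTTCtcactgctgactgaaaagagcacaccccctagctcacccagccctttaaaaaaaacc

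Ifit1bl1 has 2 annotated start sites, each with a region of its own, here on the reverse strand (region 9, chr19:34599428-34599510, and region 10, chr19:34602003-34602132). Over the 83 bases that both windows hold, 80 were the same. Each window has 1 core and, upstream of it as printed, the PU.1 motif GAGGAAGT. Both motifs read on the forward strand, opposite to the printed one. PU.1 is the lineage-determining factor of macrophages. Its motif lay within 100 bp of the summit in these 2 of the 15 regions (13.3%), near the 11% of all regions.
Ifit1bl1, transcript 201: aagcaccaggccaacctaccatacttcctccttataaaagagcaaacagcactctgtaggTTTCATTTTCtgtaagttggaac
Ifit1bl1, transcript 202: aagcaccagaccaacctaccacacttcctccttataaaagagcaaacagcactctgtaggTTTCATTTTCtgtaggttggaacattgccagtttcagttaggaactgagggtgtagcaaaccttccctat

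Ifit2 differed from the others in where its core lies. The 250 bases before its annotated start (region 2, chr19:34550444-34550693, forward strand) held none, nor did those before a second listed start of Ifit2 and of Ifit1bl2.
Ifit2 promoter, no core: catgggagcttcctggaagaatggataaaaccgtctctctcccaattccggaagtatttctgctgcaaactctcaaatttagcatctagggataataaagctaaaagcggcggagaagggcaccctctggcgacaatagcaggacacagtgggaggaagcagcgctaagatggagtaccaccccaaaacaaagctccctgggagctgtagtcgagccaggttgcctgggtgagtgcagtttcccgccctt
A core was found 19.5 kb downstream, in region 5, 16 bases before exon 2 of Ifit2, the exon that carries the start codon (chr19:34570133-34570218, forward strand).
Ifit2, before exon 2: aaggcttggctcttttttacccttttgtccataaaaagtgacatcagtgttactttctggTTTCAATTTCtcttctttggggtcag

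**Figure D1:**
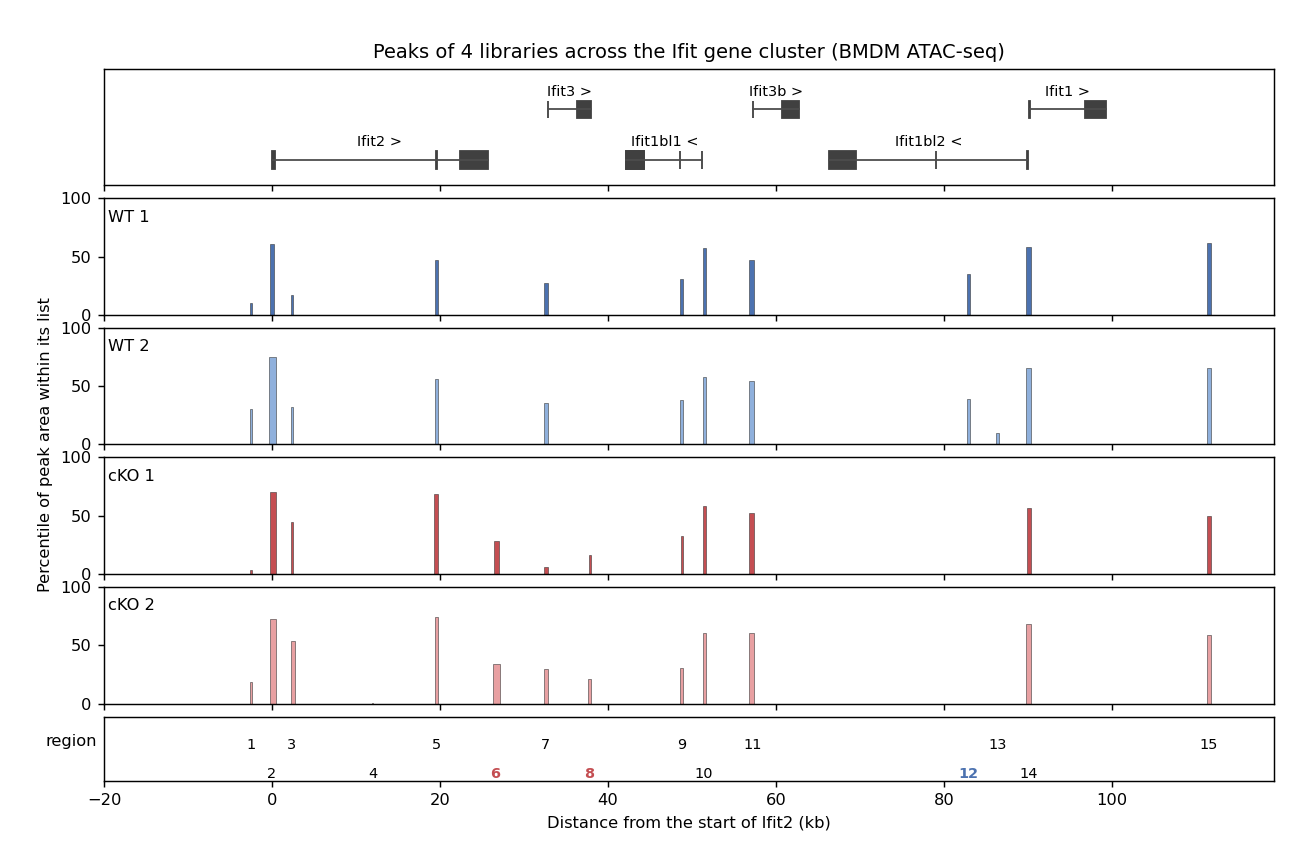
Map of the peaks in the interval. The x axis is the distance from the Ifit2 start in kb, the top panel draws the exons of the 6 genes (> forward strand, < reverse strand), and each of the 4 library panels draws 1 library, with a bar per peak whose height is the percentile of its area within its list. Region numbers are in the bottom panel, with the gained regions 6 and 8 in red and the lost region 12 in blue. The bars at the 6 promoter regions (2, 7, 9, 10, 11 and 14) are present in every library.

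Each Ifit gene had an accessible region at an annotated promoter in both genotypes. A promoter was taken to run from 1 kb before a transcription start site (TSS) to 100 bp after it. All 6 members had a promoter peak in all 4 libraries, as did 51.4% of the 21755 protein-coding genes. A further start of Ifit1bl2, listed in RefSeq, had no region in the 250 bases before it. The percentiles of the 6 promoter regions ranged from 5.7 to 75.1, whereas the median over all protein-coding promoters called in all 4 libraries was 86.

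The Ifit2 promoter (ENSMUSG00000045932.12, region 2, chr19:34550354-34551190, summit 79 bp before the TSS) stood at percentiles 60.4 and 75.1 in WT, against 70.2 and 72.7 in cKO. Its peak was 492 and 812 bp wide in WT, against 729 and 745 bp in cKO. Both cKO values lay between the WT values in percentile and in width.

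The promoter shared by Ifit1 (ENSMUSG00000034459.8) and Ifit1bl2 (ENSMUSG00000067297.5), region 14 at chr19:34640518-34641126, stood at 57.8 and 65.9 in WT, against 56.6 and 68.2 in cKO. The groups overlapped, and the summit lay 14 and 5 bp from the 2 ISRE cores. This region's nearest TSS was that of Ifit1bl2, 61 bp away, and by the region's centre it would be that of Ifit1.

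Ifit1bl1 (ENSMUSG00000079339.7) had its 2 promoter regions at different levels. Region 10 (chr19:34601961-34602403) stood at 57.3 and 57.7 in WT, against 58.1 and 60.6 in cKO, and region 9 (chr19:34599334-34599619) at 30.5 and 38.1 in WT, against 32.3 and 30.4 in cKO. Region 10 was the higher in each library, although over an aligned 218 bp, 49.2% of region 10, the regions were 97.2% identical. Its peaks were also wider, at 420 to 439 bp, against 255 to 286 bp in region 9. By area per base the regions stood closer, at percentiles 62.9 to 67.4 in region 10 and 47 to 56.7 in region 9. By area, region 10 had both cKO percentiles above both WT percentiles, but the mean shift was only 1.85 percentile points, and region 9 overlapped.

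Ifit3b (ENSMUSG00000062488.9) stood above its near copy Ifit3 in every library. Its promoter, region 11 (chr19:34607470-34608086), was at 47 and 54 in WT, against 52 and 60.2 in cKO. The Ifit3 promoter (ENSMUSG00000074896.3), region 7 (chr19:34583079-34583615), was at 27 and 35.6 in WT, against 5.7 and 30 in cKO. In both regions the genotypes overlapped, and the lowest value of the 6 promoters was that of Ifit3 in cKO 1.

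Reads of these promoters could not be placed with certainty. Of the 50-base words in region 7, 48% occurred at a second place in the genome, and of those in region 11, 54.8% did. The regions were 96.3% identical over 626 aligned bp. The area per base of region 7 was low for its lists, at percentiles 5.88 and 8.06 in WT, against 0.679 and 4.14 in cKO, and how ambiguous reads were handled before peak calling was not stated. For this reason the levels of Ifit3 and Ifit3b are uncertain, singly and against each other. In regions 9 and 10 of Ifit1bl1, 9.28% and 1.02% of the 50-base words were repeated, so some reads there could not be placed with certainty either. In 10 regions, 1 to 6 and 12 to 15, no 50-base word was repeated.

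**Figure D2:**
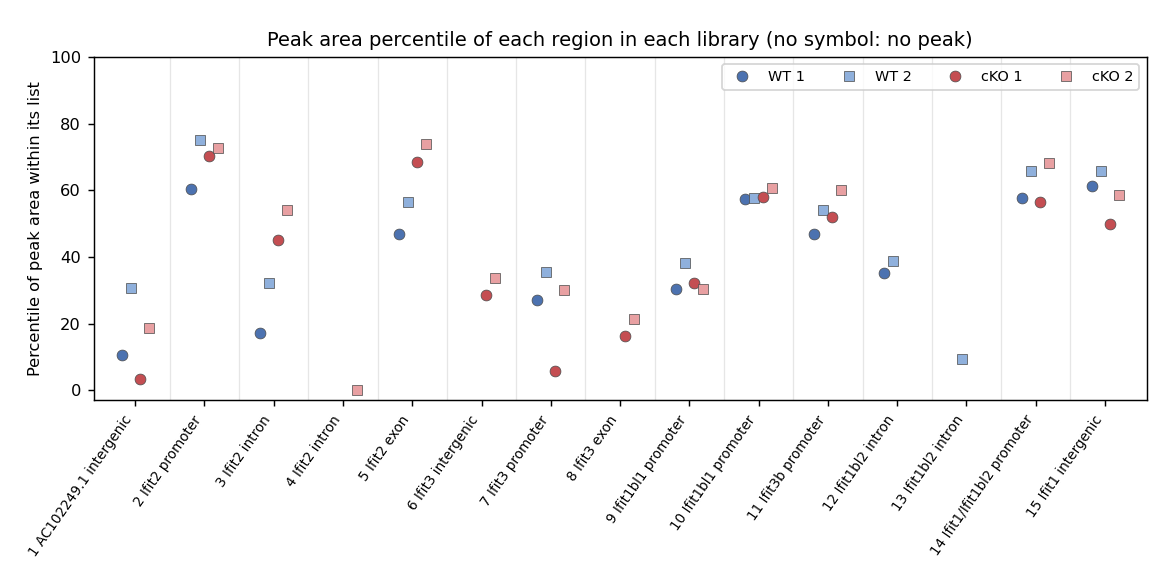
Percentile of the peak area within its list (y axis) for the 15 regions in chromosome order (x axis, with the gene the region lies in, or the nearest TSS for intergenic regions). Blue symbols are WT and red symbols cKO, circles replicate 1 and squares replicate 2, and a missing symbol means that no peak was called. Regions 3 and 5 show both cKO symbols above both WT symbols with a gap, and regions 6, 8 and 12 have symbols of 1 genotype only.

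The interval as a whole held 11 and 12 peaks in WT and 12 and 13 in cKO (11.5 ± 0.707 against 12.5 ± 0.707, SD, n = 2). The difference of 1 peak was within the spread of the replicates, with a two-sided exact permutation p of 0.667, and the smallest p that 2 against 2 libraries allow is 0.333. Peaks covered 4688 and 5409 bp in WT, against 5470 and 6154 bp in cKO. Both cKO values were above both WT values (5048 ± 510 against 5812 ± 484 bp, SD, n = 2, exact permutation p = 0.333, the smallest possible). When the genome was tiled at the same length, 14.5% of the 9699 tiles with a peak in every library also had both cKO lengths above both WT lengths. With flanks of 50 kb the covered lengths of the genotypes overlapped, with a difference of 235 bp (exact permutation p = 0.667). Per Mb covered by the whole list, the interval took 151 and 154 bp in WT, against 193 and 188 bp in cKO. The whole lists covered 31 and 35.2 Mb in WT, against 28.4 and 32.7 Mb in cKO, which raises this measure in cKO. It was not computed for the tiles, so it has no background share.

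Of the 15 regions, 10 (66.7%) were called in all 4 libraries, against 62.9% of all regions. A region called in both cKO and neither WT library was termed gained, and 2 of 15 were (13.3%), against 3.72% of all regions. The reverse, termed lost, applied to 1 of 15 (6.67%), against 7.25%. The other 2 were called in 1 library only, region 4 in cKO 2 at percentile 0.192 (chr19:34562577-34562778, an intron of Ifit2) and region 13 in WT 2 at 9.54 (chr19:34636901-34637233, an intron of Ifit1bl2). Without WT replicate 1, region 13 also counted as lost, which made 2. With so few regions these counts rest on single peaks.

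Both gained regions were nearest to Ifit3. Region 6 (chr19:34577041-34577809) lay between Ifit2 and Ifit3, 6318 bp before the Ifit3 TSS, with percentiles 28.5 and 33.7 in cKO 1 and cKO 2. It was broad and shallow. Its peaks were 661 and 769 bp wide, against a median width of 309 bp for gained regions, and its area per base stood at percentiles 1.64 and 1.15 of the lists. Its mean percentile of 31.1 was at or above that of 75.8% of all gained regions. The 151 bases around its summit in cKO 2 (chr19:34577138-34577288, forward strand) held none of the 5 motifs searched, which were the ISRE core, GAS (TTCNNNGAA), AP-1 (TGANTCA), PU.1 (GAGGAAGT) and C/EBP (TTGCNNAA).
Region 6, summit: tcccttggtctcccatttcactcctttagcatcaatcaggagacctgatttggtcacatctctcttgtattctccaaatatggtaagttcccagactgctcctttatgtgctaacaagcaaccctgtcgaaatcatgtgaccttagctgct
An AP-1 motif, the site of Fos and Jun family factors, lay 342 bp from this summit, inside the region (chr19:34577522-34577588, forward strand, in capitals). Within 100 bp of the summit AP-1 was found in 27% of gained, 17.4% of shared and 9.99% of lost regions of the genome, and in 2 of the 15 regions of the interval (1 and 11). The site in region 6 lies outside this distance. For the ISRE core the shares were 4.3% of gained, 4.03% of shared and 4.42% of lost regions of the genome.
Region 6, AP-1 motif: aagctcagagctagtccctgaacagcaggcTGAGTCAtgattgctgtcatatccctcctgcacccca

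Region 8, the second gained region, lay in the last exon of Ifit3, exon 2, 4970 bp after the TSS (chr19:34588277-34588687). All 411 bases are in its 3′ untranslated part. The peaks stood at 16.3 and 21.3 in cKO and were 277 and 379 bp wide, near the median percentile of 19 for gained regions. The whole region has a copy at Ifit3b (chr19:34612647-34613056, 94.9% identical), where no region was called in any library, and 18.5% of its 50-base words were repeated. Reads that match such words could come from either copy.

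The lost region 12 (chr19:34633422-34633807) lay in an intron of Ifit1bl2, 7082 bp after its TSS. In WT 1 and WT 2 it stood at 35.1 and 38.8, with widths of 383 and 351 bp. Its mean percentile of 36.9 was at or above that of 85.9% of all lost regions, whose median was 19.8. None of its 50-base words occurred elsewhere. The 151 bases around its summit (chr19:34633586-34633736, forward strand) held none of the 5 motifs.
Region 12, summit: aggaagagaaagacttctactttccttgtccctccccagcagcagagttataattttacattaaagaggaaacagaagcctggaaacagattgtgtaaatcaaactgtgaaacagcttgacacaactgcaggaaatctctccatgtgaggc

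Peaks of under 200 in area were not listed in any library, so a missing peak means an area below this limit and not closed chromatin. In cKO the areas of the gained region 6 were 375 and 427, and those of region 8 were 286 and 322. The lost region 12 had areas of 460 and 510 in WT.

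The largest shifts among the shared regions of the interval were at 2 sites within Ifit2, both higher in cKO. Region 3, in the first intron 2354 bp after the TSS (chr19:34552918-34553387), stood at 17.3 and 32.1 in WT, against 45 and 54 in cKO. Every cKO value was above every WT value, by 24.8 percentile points on the mean. Of the regions called in all 4 libraries, 2.35% had a shift at or above this value. That share counts rises in cKO only and leaves out falls of the same size. Its peak was 286 and 330 bp wide in WT, against 319 and 470 bp in cKO. The sequence at its summit (chr19:34552989-34553139, forward strand) has no repeated 50-base word and held none of the 5 motifs.
Region 3, summit: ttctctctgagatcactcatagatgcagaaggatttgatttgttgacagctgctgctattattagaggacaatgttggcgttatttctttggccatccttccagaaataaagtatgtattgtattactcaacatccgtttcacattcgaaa

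Region 5 (chr19:34570047-34570517) has its summit in exon 2 of Ifit2, in the 5′ untranslated part, 60 bp from the ISRE core printed above. It stood at 47 and 56.4 in WT, against 68.5 and 73.9 in cKO, again without overlap, and 4.48% of shared regions had a shift at or above its 19.5 points. In cKO 2 this region stood higher than the annotated Ifit2 promoter (73.9 against 72.7), while in the other 3 libraries it stood lower. Its area per base was higher as well, at percentiles 78.9 and 89.8 in cKO, against 45.9 and 68.1 in WT. Because the nearest TSS by distance was that of Ifit3, 13273 bp away, region 5 was assigned to Ifit3 although it lies in the body of Ifit2.

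Regions 3, 5 and 10 were the 3 of 10 shared regions (30%) with both cKO percentiles above both WT percentiles, against 22.2% of the 44820 shared regions of the series, so their number was near the background. Without WT replicate 2, and likewise without cKO replicate 1, the number was 5. Region 15 (chr19:34662043-34662539), intergenic and 21329 bp after the Ifit1 TSS, was the 1 of 10 (10%) with both cKO values below both WT values, at 61.4 and 65.7 in WT, against 50 and 58.6 in cKO. Among all shared regions 35.1% did so. Region 1 (chr19:34548053-34548302), nearest to the pseudogene AC102249.1 and upstream of Ifit2, overlapped at 10.5 and 30.8 in WT, against 3.44 and 18.7 in cKO.

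The median shift of the 10 shared regions was 1.17 points, against -1.1 over all shared regions, whose quartiles were -8.06 and 3.79. The median percentile of the 10 was 55.9, against 59.7 for all. In 11 of 11 regions called in both WT libraries WT 2 was above WT 1, and in 11 of 12 called in both cKO libraries cKO 2 was above cKO 1. The cluster therefore shared the difference between replicates seen across the lists. In regions 1, 11 and 14 that difference was larger in either genotype than the one between the genotype means.

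**Figure D3:**
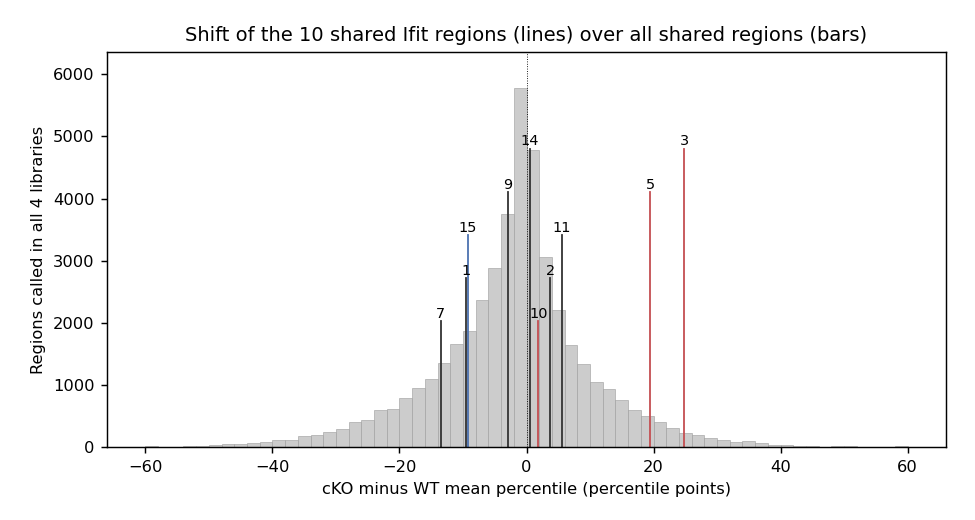
Shift of each shared region, the mean cKO minus the mean WT percentile in percentile points (x axis). Bars count all 44820 regions called in all 4 libraries (y axis) in bins of 2 points, and vertical lines mark the 10 regions of the interval by number, at heights chosen only for legibility, with red for both cKO values above both WT values and blue for the reverse. Lines 3, 5 and 11 lie right of the upper quartile of 3.79, lines 3 and 5 farthest, at 24.8 and 19.5 points.

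By gene, with regions counted within 10 kb of a TSS, Ifit3 was the 1 of 6 members (16.7%) with a gained region, and it had both, against 5.55% of the 14928 protein-coding genes with any region in reach. Ifit1 and Ifit1bl2 (33.3%) had a lost region, against 12.3%, but it was the same region 12 counted at both of their neighbouring start sites. By nearest TSS, Ifit3 took 4 regions, Ifit2 and Ifit1bl2 took 3 each, Ifit1bl1 took 2, and Ifit3b and Ifit1 took 1 each. AC102249.1 took 1, and no region was nearest to the pseudogene AC016791.2.

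Other genes of the interferon pathway gave a setting for these values. A list of 32 protein-coding genes, with the Ifit genes left out, was taken by role. Of these, 10 (31.2%) had a gained region within 10 kb, against the 5.55% above, and 3 (9.38%) a lost one, against 12.3%. The interferon receptor genes Ifnar1 and Ifnar2 had neither. Among the kinases Jak1 had 1 gained region. Of 5 transcription factors none had a gained region and Irf1 had a lost one, and of the inhibitors Usp18, which removes the ubiquitin-like Isg15 from proteins and restrains the receptor, had 1 gained region. Of the 21 antiviral effectors 8 had a gained region, with Ifi44 at 4 gained regions, Rsad2 (viperin) and Zbp1 (a nucleic acid sensor) at 3 each, Oasl1, Mx1 (a GTPase) and Ifi44l at 2 each, and Oas3 and Bst2 (tetherin) at 1 each. Ifitm3 and Oas1a each had a lost region.

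The promoters of 29 of the 32 genes were called in all 4 libraries, and 12 of the 29 (41.4%) had both cKO percentiles above both WT percentiles, against 21.2% of all such promoters. The reverse held for 7 of the 29 (24.1%), against 33.8%, and both receptor genes were among them. Among the members only the promoter of Ifit1bl1 did, by the small shift given above, and none had the reverse. At Oasl1, for example, the promoter stood at 55 and 62 in WT, against 78.6 and 83.1 in cKO, and at Zbp1 at 82.2 and 83.6 in WT, against 91.3 and 92 in cKO. At Ifi44 no promoter peak was called in WT, and it stood at 72.5 and 74.5 in cKO. Of the 5 transcription factors, only Irf7 had both cKO promoter percentiles above both WT values, at 62.9 and 70.2 against 27 and 53.2. In the other direction, the Ifnar1 promoter stood at 94.3 and 95.4 in WT, against 91.6 and 91.5 in cKO, and that of Ifitm3, which blocks viral entry, at 53.1 and 60 in WT, against 46 and 46.1 in cKO. Of the 5 transcription factors only the Stat2 promoter was in this direction, at 89.7 and 91.6 in WT, against 88 and 89.4 in cKO. No test compared the members with these genes.

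**Figure D4:**
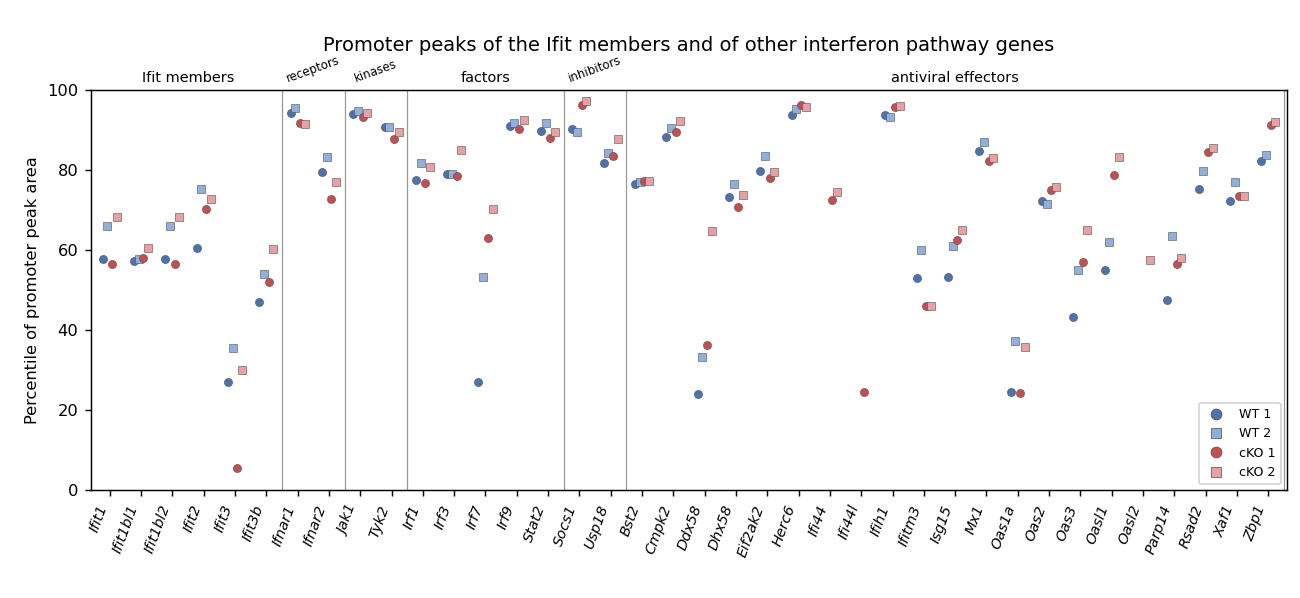
Percentile of the promoter peak area within its list (y axis) for the 6 Ifit members and 32 other genes of the interferon pathway, grouped by role (x axis). Symbols are as in the plot of the 15 regions, with blue for WT, red for cKO, circles for replicate 1 and squares for replicate 2. The Ifit1 and Ifit1bl2 symbols are the same region, the members lie between 5.7 and 75.1, and Ifi44 has cKO symbols only.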

How the data were processed

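The authors aligned paired reads to mm10 with Bowtie2 2.5.1 and called peaks in each library with Genrich at default settings (version not given in the sources used here). Read filters, removal of duplicates, the handling of reads with several placements and any Tn5 shift were not stated. The value used was the deposited signal of a peak, which Genrich computes as the area of its significance curve. It was ranked within each list, since depth is unknown and areas of different libraries are not on 1 scale. The deposited −log10 p-value and the deposited score entered no comparison.

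Groups came from the sample titles. Overlapping peaks (1 bp or more) of all 4 lists were merged in Python 3.11.15 (pandas 2.3.3, numpy 2.4.6). The summit of the highest-ranked peak set the nearest TSS and the class in GENCODE M21. Copies were sought with blastn 2.17.0 and as repeated 50-base words of the genome. The number of peaks and the covered length were put to two-sided exact permutation tests, and the merging and ranking steps were tested on simulated data. Without read counts no gene-wide model could be fitted, so differences between single regions have no test. The genes named were the members, other genes with a TSS in the interval, the targeted genes, and pathway genes with a gained or lost region, with Oasl1, Zbp1, Ifi44 and Ifitm3 given in more detail after their values were seen. Ifnar1, Ifnar2, Irf7, Stat2, Spi1 and Ms4a1 lie outside this rule and were named after their values were seen. The members, lists and motifs were chosen with earlier results of these data known. Mx2, on the pathway list, is not annotated as protein-coding in M21 and was not used here. The result for 1 other gene of that list is not reported here, and it was left out of the counts.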

Additional observations from a re-analysis of the deposited data

How the results depend on the processing

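The mean covered length was longer in cKO under every alternative run, but the difference fell from 763.5 to 235 bp with flanks of 50 kb (exact permutation p = 0.667) and to 593.5 bp with the stricter threshold below (p = 0.667), and in both settings the genotypes overlapped. Leaving out 1 library in turn gave a difference of 0.5 to 1.5 peaks, a covered length difference of 403 to 1124 bp, 2 to 3 gained regions, 1 to 2 lost regions and 3 to 5 shared regions with both cKO percentiles above WT. With flanks of 50 kb the cKO minus WT difference in peak number turned to -1.5 and the lost regions became 2. With peaks below the median area of each list removed, no region was gained or lost (0 and 0), as the gained and lost regions all rank below that median. In this setting 1 shared region was above, region 10, whose shift was 1.85 points. Regions 3 and 5 were no longer called in all 4 libraries. The WT peaks of region 3 (17.3 and 32.1) and the WT 1 peak of region 5 (47) rank below the median. With lists shortened to equal length both gained regions and the lost region kept their calls, and 2 of the 3 regions above did. With a replicate block, WT and cKO of the same number compared, the difference was 1 peak (exact sign-flip p = 0.5) and 763.5 bp (p = 0.5). The smallest p that this test allows with 2 pairs is 0.5. The block gave 2 gained, 1 lost and 4 regions above. A minimum cover of 50% of the region changed no count of regions and gives no value for peak number or covered length. The labels give no shared batch or animal for the numbers. Taking the region centre for the summit, or protein-coding genes only, changed the nearest gene of 1 of 15 regions each. Depth limits what can be said, since a peak just below the caller's threshold is not listed, and 2 libraries per genotype cannot give a p below 0.333.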
